A study of Mus musculus with 8 samples.

Results

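Chromatin accessibility was examined at 10 genes of the NRF2 antioxidant response and of iron handling (Nfe2l2, Hmox1, Nqo1, Gclm, Slc7a11, Txnrd1, Srxn1, Gsr, Slc40a1 and Fth1) in mouse alveolar macrophages (AMs), the resident macrophages of the airspaces. A region belonged to a gene when it overlapped the gene body with 20 kb added on each side (mm10, GENCODE M21), and overlapping peaks from different libraries (1 base or more) were joined into one region. This gave 72 regions, of 82424 merged regions in the genome. Accessibility had been assayed by ATAC-seq, in which the Tn5 transposase cuts open chromatin and inserts sequencing adapters, in AMs collected by lavage from adult mice and sorted, by the study's description as mature AMs. Of the 8 libraries, 4 came from CD11cCre+ Rxrabfl/fl mice (KO, replicates 1_2, 1_3, 2 and 3) and 4 from CD11cCre- Rxrabfl/fl mice (WT, replicates 1_2, 1_3, 3 and 4). Both groups thus carried the floxed alleles of the retinoid X receptor genes Rxra and Rxrb, and the labels name no treatment. Cre was driven by the CD11c promoter, which is active in AMs and also in dendritic cells.

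NRF2, the product of Nfe2l2, is a transcription factor that KEAP1 marks for degradation in unstressed cells. Oxidants and electrophiles block that step, and NRF2 then pairs with small MAF proteins on antioxidant response elements (AREs) in enhancers and promoters, where the heme-sensing repressor BACH1 also binds. Its targets import cystine, make and recycle glutathione, reduce thioredoxin and quinones, degrade heme, and store or export iron, a set of tasks that matters in AMs because they live in oxygen-rich air and take up red cells and surfactant.

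Across the series the lists held 60363 to 65009 peaks in KO and 61240 to 72484 in WT. Genome background, in tags per 200 bp, was estimated from the lowest local backgrounds worked back at the called peaks (a very low quantile in each library). It was 1.125 to 1.86 in KO and 1.42 to 2.26 in WT. Promoter peaks were present in all 8 libraries at 9 of 10 AM marker genes, whereas Chil3 had none. Of 12 markers of other lavage cells, 7 had no promoter peak, among them the T cell genes Cd3e and Cd3d, and 4 had one in all libraries (S100a8, Epcam, Pecam1 and Ly6c2). At Rxra, 1 of 16 regions had a peak in all 4 WT and 0 KO libraries, and 1 was called higher in KO by the test described below. At Rxrb, both genotypes had equal numbers of libraries with a peak at each of the 2 regions, and 0 were called. The exons that are deleted are not given in the sources used here. At the X-linked noncoding genes Firre and Xist, 12 of 18 and 2 of 3 regions called more than once were present throughout KO and absent from WT. The labels give no sex for any library, so genotype and sex cannot be told apart in what follows, although all 10 genes are autosomal. KO replicates 1_2 and 1_3, and likewise KO replicates 2 and 3, differed by no more than sampling noise (a chi-square of 1.01 per region in both pairs, compared with 1.104 to 2.17 in the other 10 pairs of one genotype). Their summits fell on the same base no more often than those of other pairs (5.28 to 6.70% in any pair, also across genotypes). Separate preparations from 1 animal could give the same share, so this cannot show whether the samples are independent. They were kept as separate samples as labelled, and calls are also given with each of these pairs counted as 1 sample (the KO pairs averaged).

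The sequences shown first are those of the intronic regions with the largest differences and of the one region that was lower in KO. Capitals mark matches within 100 bp of the summit to the ARE core (TGACNNNGC) or to an AP-1 site (TGACTCA), read on both strands. The 2 patterns overlap wherever an AP-1 site is followed by GC. All are given on the plus strand of mm10. The first Slc7a11 window is chr3:50438219-50438419, the second chr3:50438949-50439149, the Gsr window chr8:33660638-33660838 and the Txnrd1 window chr10:82913859-82914059.
Slc7a11 intron, 5.29 kb from the start: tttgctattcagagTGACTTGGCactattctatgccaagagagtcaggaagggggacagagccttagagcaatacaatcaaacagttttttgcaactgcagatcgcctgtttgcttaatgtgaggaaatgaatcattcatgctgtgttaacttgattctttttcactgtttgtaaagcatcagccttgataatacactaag
Slc7a11 intron, 4.56 kb from the start: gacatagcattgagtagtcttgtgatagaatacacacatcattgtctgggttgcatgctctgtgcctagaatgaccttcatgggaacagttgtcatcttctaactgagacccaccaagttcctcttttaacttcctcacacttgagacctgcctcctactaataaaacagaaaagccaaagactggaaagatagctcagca
Gsr intron, 7.50 kb from the start: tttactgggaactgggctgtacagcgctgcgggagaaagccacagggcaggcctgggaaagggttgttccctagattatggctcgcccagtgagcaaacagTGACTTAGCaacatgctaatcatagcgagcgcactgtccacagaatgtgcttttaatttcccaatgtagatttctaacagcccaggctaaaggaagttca
Downstream of Txnrd1, 53.7 kb from the start: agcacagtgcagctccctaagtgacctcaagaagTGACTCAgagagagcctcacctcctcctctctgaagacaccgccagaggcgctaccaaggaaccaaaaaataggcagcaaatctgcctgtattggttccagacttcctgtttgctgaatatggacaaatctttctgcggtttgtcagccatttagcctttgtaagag

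The Slc7a11 window at 5.29 kb and the Gsr window each hold 1 ARE match, the Txnrd1 window holds 1 AP-1 site 5′ of its summit, and the Slc7a11 window at 4.56 kb holds neither pattern. Upstream of Hmox1, which encodes heme oxygenase 1, a pair of intergenic regions held repeated ARE matches, and these are shown because the distal enhancers of this gene that NRF2 and BACH1 bind are known to carry such clusters. The region at chr8:75083779-75084173 held 3 and the region at chr8:75089451-75089894 held 2.
Hmox1 −9.62 kb, match a: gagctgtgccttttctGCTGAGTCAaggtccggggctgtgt
Hmox1 −9.62 kb, match b: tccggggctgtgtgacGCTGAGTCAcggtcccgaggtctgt
Hmox1 −9.62 kb, match c: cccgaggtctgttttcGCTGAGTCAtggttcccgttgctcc
Hmox1 −3.93 kb, match a: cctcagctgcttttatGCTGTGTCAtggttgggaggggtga
Hmox1 −3.93 kb, match b: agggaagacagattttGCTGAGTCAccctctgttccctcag

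Each of these matches lies on the minus strand, and 4 of the 5 hold an AP-1 site followed by GC. In the RefSeq promoter table for GRCm38.p6 (250 bases before to 50 after a start), 7 of the 10 genes had an entry, with 10 promoters in all. An ARE match occurred in 4 of these 10 promoters and in 12.4% of all 32851 promoters in the table. The matches are printed on the strand of the gene, at chr2:75704885-75704913 (minus), chr2:152105542-152105570 (plus), chr3:122245413-122245441 (plus) and chr10:82859104-82859132 (plus).
Nfe2l2: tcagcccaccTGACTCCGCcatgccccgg
Srxn1: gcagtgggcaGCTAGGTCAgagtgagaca
Gclm: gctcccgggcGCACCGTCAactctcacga
Txnrd1: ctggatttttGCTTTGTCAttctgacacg

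The accessible regions of these genes were largely the same in both genotypes. Of the 72 regions, 47 were called in all 8 libraries, 14 in 2 to 7 libraries and 11 in 1 library (7 in KO and 4 in WT). Of the 61 regions called in 2 or more libraries, 77.0% were thus found in every library, and the share over all 72711 such regions was 65.3%. KO libraries held a peak in 56.0 ± 3.16 of the regions and WT libraries in 57.2 ± 3.95 (SD, n = 4 each). The covered length was 29.3 ± 0.780 kb in KO and 29.9 ± 3.22 kb in WT. At these genes 0 regions were called throughout one genotype and never in the other, a pattern met by 0.82% of all regions in the WT direction and 0.285% in the KO direction.

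The genes differed in how many regions they held. Slc7a11 had 17, Nfe2l2 11, Hmox1 9, Txnrd1 8, Fth1 7, Gclm and Srxn1 6 each, Gsr 5, Slc40a1 2 and Nqo1 1. The high count at Slc7a11 goes with a GENCODE gene body of 551 kb, compared with 4.50 to 63.8 kb at the other genes. The windows also reached starts of neighbouring genes, whose regions are counted here. At Hmox1, 2 regions lay within 1 kb of a start of Mcm5. At Nfe2l2, Gclm and Gsr, 1 region each lay within 1 kb of a start of Hnrnpa3, Dnttip2 and Ubxn8, respectively. All 10 genes had a promoter region (a summit within 1 kb of an annotated start) with a peak in every library. Regions found in fewer libraries were weak: those called once had a strength percentile, the rank of a peak's −log10 p within its own list, of at most 12.6, and those in 2 to 7 libraries of 2.82 to 31.1, whereas those in all libraries ranged upward from 23.7.

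**Figure D1:**
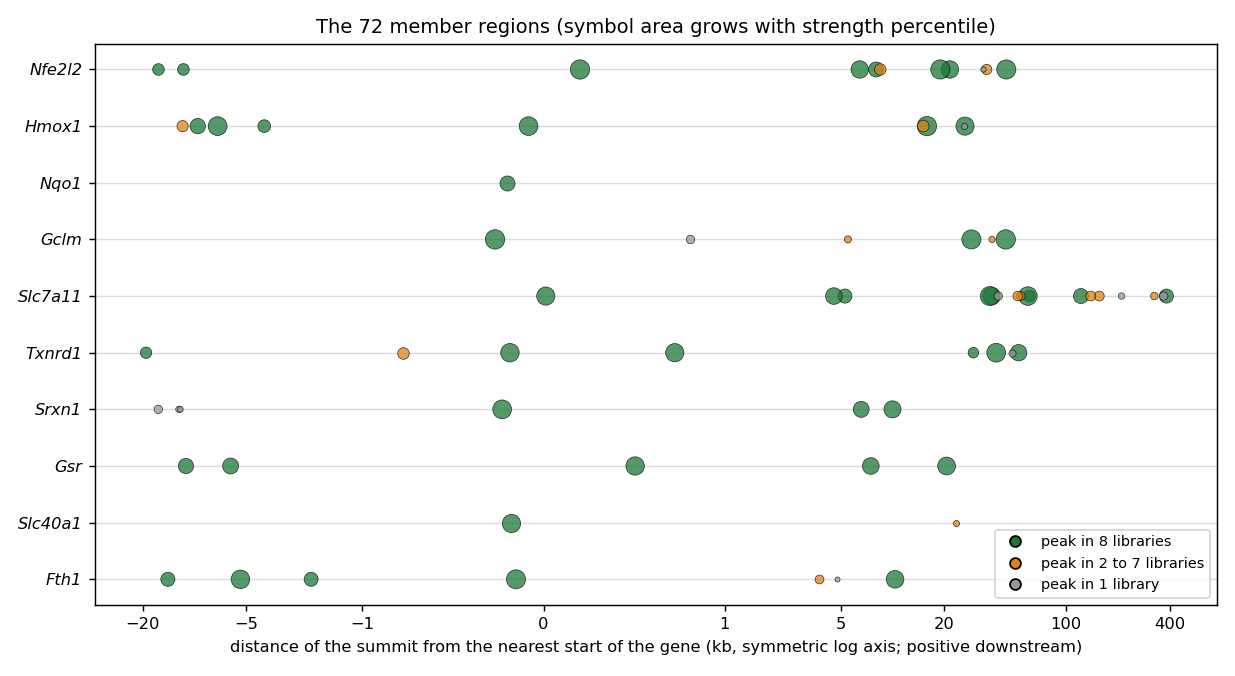
Each point is 1 of the 72 regions, placed by the distance of its strongest summit from the nearest start of its gene (kb, symmetric log axis) and coloured by the number of libraries with a peak. All 10 genes have a region in all 8 libraries next to a start, Nqo1 has no other region, and the regions of Slc7a11 reach to 380 kb.

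The one region in which the genotypes differed by at least 3 libraries lay in the long annotated intron of Slc7a11, at chr3:50119752-50120144. The summit held 10 tags in WT replicate 1_2, 17 in 1_3 and 13 in 4, while WT replicate 3 and every KO library lacked a peak. Differences of at least 3 libraries were found in 3.46% of all regions in the WT direction and in 1.2% in the KO direction. A summit tag is a transposase cut extended to 200 bp, counted where the peak is highest, and the smallest summits that were called had 6 to 9 tags, so these values lie close to the limit of detection. Another region, 35.1 kb from the start of Nfe2l2 and nearer to Hnrnpa3 (chr2:75669196-75669931), had 22, 29, 19 and 22 tags in the 4 WT libraries and 15 and 11 tags in KO replicates 1_3 and 2. KO replicates 1_2 and 3 had no peak there. The absence of a peak does not always mean few tags. The region at chr10:82858536-82858764, beside the Txnrd1 promoter, was called in 4 libraries with 61 to 102 tags and in the other 4 not at all, with 2 libraries of each genotype on either side.

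The levels at the 47 shared regions were then compared as summit tags scaled to an equal median over the regions shared by all libraries (tags divided by a library factor of 0.843 to 1.34), which matches this 1 statistic and not the genome background. A sorted population was measured in bulk, so more open cells and more open chromatin per cell cannot be told apart. The clearest difference was at Slc7a11, which encodes the cystine importer xCT: 3 of its 9 tested regions were higher in KO, all within its introns. A Gsr intron and the Fth1 promoter were also higher in KO, and 1 region downstream of Txnrd1 was lower. In all, 6 of 47 regions passed an adjusted p of 0.05 (limma, Benjamini-Hochberg over all 47499 regions), 5 higher and 1 lower. Of all tested regions 12.8% passed, 5.81% higher and 7.03% lower, so the share at these genes was that of the background. With the KO pairs that differed only by sampling noise counted as 1 sample each, 2 of the 47 regions passed, both at Slc7a11, and 6.34% of all regions. With the fold enrichment over local background in place of tags, 0 of 47 passed (limma) and 3.53% of all regions, and 5 of the 47 had an unadjusted p under 0.05. With libraries scaled by their genome background, 1 of 47 passed and 5.4% of all regions.

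The log2 differences (KO minus WT, on the scale of log2(tags + 0.5)) of the 47 regions had a median of 0.08, and that of all tested regions was 0.04. Most were small: 37 lay within 0.25 of 0 in either direction, and 36 of 47 (76.6%) were above 0, compared with 57.6% of all tested regions and 72.4% of all tested promoters. These signs rest on the scaling, since scaling by genome background moved the medians to 0.03 at these genes and −0.01 over all tested regions. The standard errors were 0.07 to 0.23. In 4 regions all KO libraries lay above all WT libraries and in 2 all lay below, where 8.18% and 8% of all tested regions did so.

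**Figure D2:**
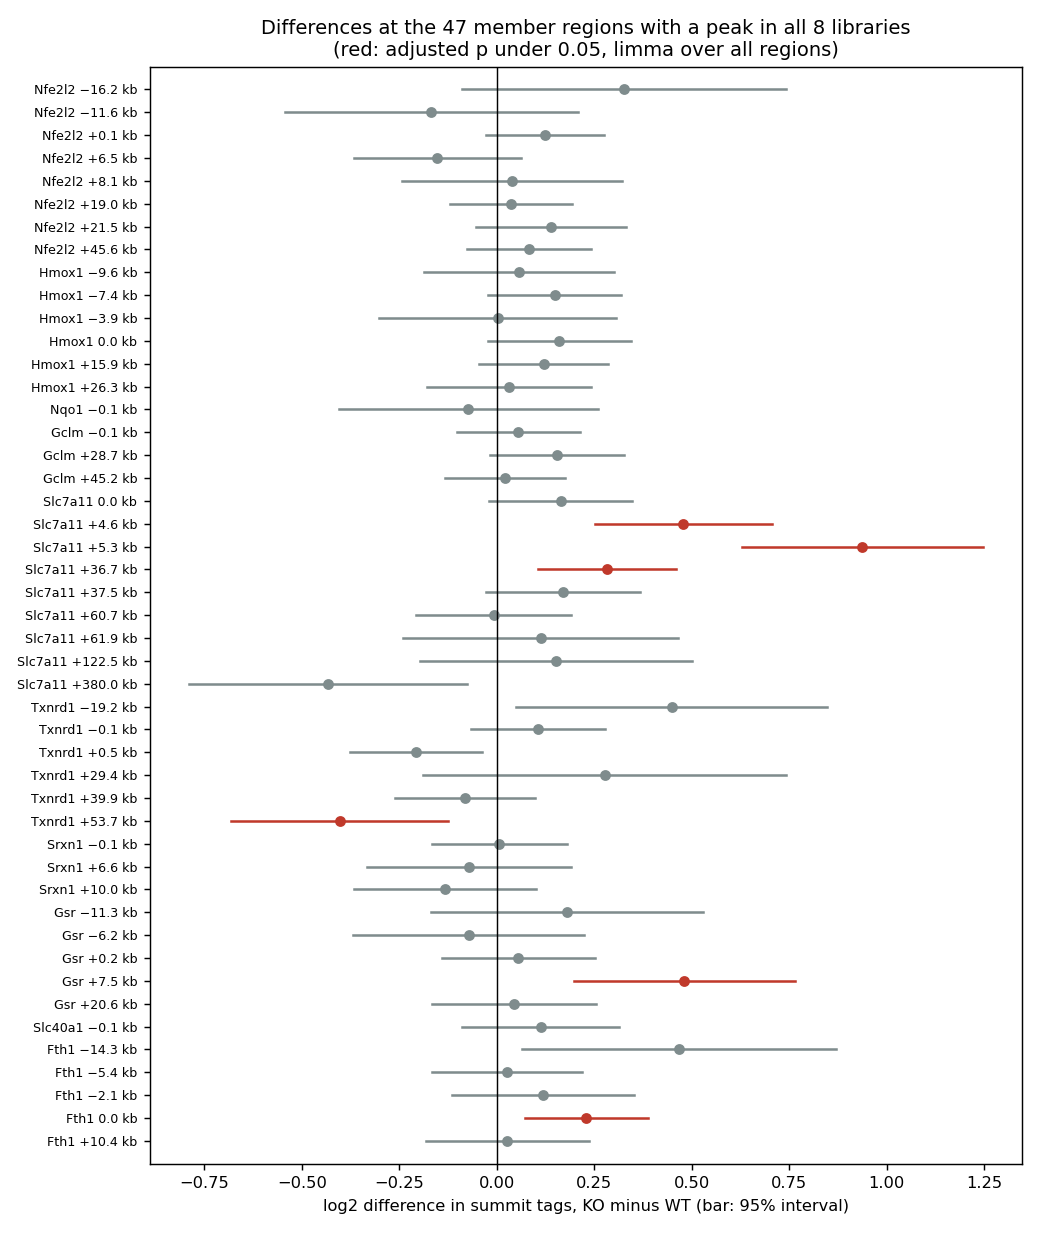
The log2 difference in summit tags (KO minus WT, x axis) with its 95% interval for the 47 regions called in every library, grouped by gene and named by the distance from a start in kb. The 6 red regions passed the adjusted p, and that of Slc7a11 5.29 kb from its start lies farthest from 0 at 0.94.

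The region that led the list lay in the first part of the Slc7a11 gene body, at chr3:50437965-50438504 (intronic, 5.29 kb from the start). Scaled summit tags were 75.7, 77.8, 80.0 and 61.7 in KO replicates 1_2, 1_3, 2 and 3 and 39.7, 46.2, 29.3 and 39.5 in WT replicates 1_2, 1_3, 3 and 4. The lowest KO library thus stood above the highest WT library. The means were 73.8 ± 8.27 and 38.7 ± 6.98 (SD, n = 4 each), a ratio of 1.91 and a log2 difference of 0.94 (SE 0.15, adjusted p = 1.58e-05, limma). Only 0.394% of all tested regions had a higher log2 difference. With the KO pairs counted as 1 sample each, the adjusted p was 0.00153. The difference on the fold enrichment scale was 0.40 (SE 0.14, adjusted p = 0.128), the one of 18 alternatives under which this region lost its call. This region carries the ARE match printed in the first window, 82 bases from the summit.

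A neighbouring intronic region at chr3:50438855-50439240, 4.56 kb from the start, moved the same way. Its scaled tags were 142, 152, 108 and 126 in KO and 104, 102, 89.7 and 81.2 in WT, again without overlap. The log2 difference was 0.48 (SE 0.11, adjusted p = 0.00255, limma), and the adjusted p was 0.0286 with the KO pairs counted once. With libraries scaled by their genome background the difference was 0.42 (adjusted p = 0.134), and on the fold enrichment scale it was 0.08 (adjusted p = 0.756). Farther in, 36.7 kb from the start, the strongest region of the gene outside its promoter (chr3:50406723-50407216) had 264, 260, 273 and 306 scaled tags in KO and 238, 240, 246 and 186 in WT. The log2 difference was 0.28 (SE 0.09, adjusted p = 0.0257, limma). WT replicate 4 was the low one, and without it the difference was 0.18 with an adjusted p of 0.128. Without KO replicate 3 the adjusted p was 0.126, and with the KO pairs counted once it was 0.143.

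The Slc7a11 promoter (chr3:50443327-50444536) had 186, 192, 165 and 167 scaled tags in KO and 166, 162, 158 and 147 in WT. The ranges touched at KO replicate 2 and WT replicate 1_2, and the log2 difference of 0.16 (95% interval −0.02 to 0.35, adjusted p = 0.252) did not pass. The other 5 tested regions of the gene had log2 differences between −0.43 and 0.17, and none of them passed. The lowest, 380 kb from the start (chr3:50063238-50063899), had 26.9, 24.2, 30.4 and 29.6 scaled tags in KO and 37.7, 43.2, 32.0 and 38.3 in WT, with all KO libraries below all WT libraries and an adjusted p of 0.101.

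**Figure D3:**
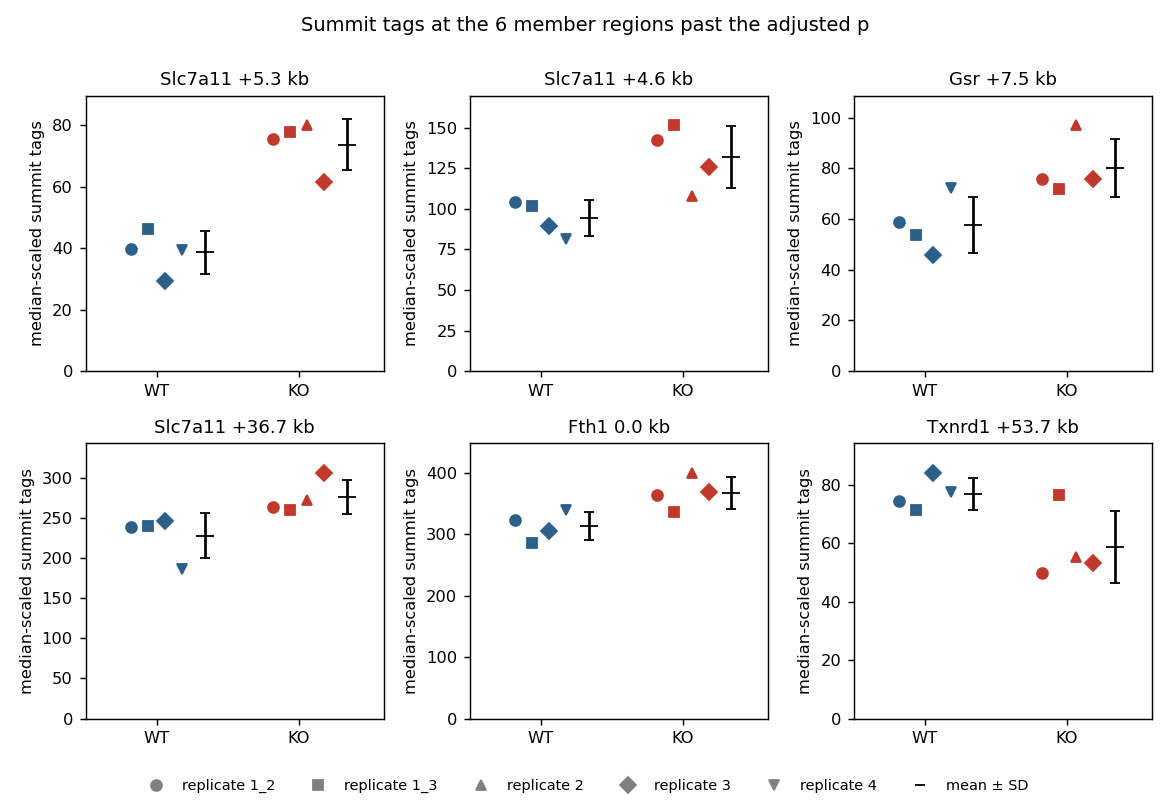
Median-scaled summit tags (y axis, from 0) of each library at the 6 regions that passed the adjusted p, with the mean ± SD of each genotype in black. At the Slc7a11 region 5.29 kb from its start the KO libraries lie between 61.7 and 80.0 and the WT libraries between 29.3 and 46.2, whereas the genotypes overlap at Gsr, Fth1 and Txnrd1.

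Of the genes of glutathione synthesis and recycling, Gsr encodes glutathione reductase, which regenerates reduced glutathione with NADPH. Its intronic region at chr8:33660394-33660996, 7.50 kb from the start, had 75.7, 71.7, 96.9 and 75.9 scaled tags in KO and 59.0, 53.7, 45.8 and 72.1 in WT. The means were 80.1 ± 11.4 and 57.6 ± 11.1, and the ranges overlapped narrowly because WT replicate 4 exceeded KO replicate 1_3. The log2 difference was 0.48 (SE 0.14, adjusted p = 0.0166, limma). It was 0.40 (adjusted p = 0.0850) without KO replicate 2, which was the highest library, and 0.37 (adjusted p = 0.111) without WT replicate 3. With the KO pairs counted once the adjusted p was 0.0929. An ARE match lies 5 bases from the summit of this region.

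The Gsr promoter (chr8:33653105-33654183) had 166, 142, 170 and 140 scaled tags in KO and 150, 155, 159 and 131 in WT, with a log2 difference of 0.06 (95% interval −0.14 to 0.25). An ARE match lies 21 bases from the summit of this promoter as well. Gclm encodes the modifier subunit of glutamate-cysteine ligase, which carries out the first step of glutathione synthesis. Its promoter (chr3:122245208-122246039) was the strongest of the 10 member promoters, with a mean strength percentile of 97.9. It had 361, 322, 323 and 357 scaled tags in KO and 336, 298, 319 and 362 in WT, and its log2 difference was 0.06 (95% interval −0.10 to 0.21). The genotypes overlapped at both promoters, and neither of the other tested Gclm regions passed.

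Among the thioredoxin genes, Txnrd1 encodes the cytosolic thioredoxin reductase and Srxn1 the sulfiredoxin that repairs overoxidized peroxiredoxins. The Txnrd1 promoter (chr10:82858852-82859475) had 225, 255, 262 and 231 scaled tags in KO and 203, 244, 218 and 240 in WT, with a log2 difference of 0.11 (95% interval −0.07 to 0.28). The intergenic region at chr10:82913745-82914402, downstream of the gene, had 49.8, 76.8, 55.2 and 53.4 in KO and 74.5, 71.5, 84.2 and 77.8 in WT. KO replicate 1_3 lay among the WT libraries, and the other 3 lay below all of them. The log2 difference was −0.40 (SE 0.14, adjusted p = 0.0452, limma), and the call was lost in 13 of 18 alternatives, including 7 of the 8 in which 1 library was left out (adjusted p = 0.0560 to 0.147) and the one with the KO pairs counted once (adjusted p = 0.110).

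Another Txnrd1 region, 0.468 kb from an alternative start (chr10:82860117-82861015), had 216, 205, 206 and 194 in KO and 246, 219, 229 and 257 in WT. All KO libraries lay below all WT libraries, but the log2 difference of −0.21 had an adjusted p of 0.0981. The Srxn1 promoter (chr2:152104710-152106082) had 218, 211, 200 and 191 scaled tags in KO and 194, 211, 194 and 216 in WT, which spanned the same range. Its log2 difference was 0.01 (95% interval −0.17 to 0.18).

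The quinone reductase gene Nqo1 and the heme oxygenase gene Hmox1 are the most widely used readouts of NRF2. Nqo1 had a single region in its whole window, the promoter at chr8:107402932-107403934. This was the weakest of the 10 member promoters, with 51.8, 31.3, 54.1 and 49.8 scaled tags in KO and 47.4, 49.9, 43.0 and 53.0 in WT. KO replicate 1_3 was the lowest library and the others overlapped. The log2 difference was −0.07, and its 95% interval of −0.41 to 0.26 was the widest among the promoters.

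The Hmox1 promoter (chr8:75093397-75093946) had 201, 188, 194 and 193 scaled tags in KO and 173, 148, 196 and 180 in WT. WT replicate 3 lay above 3 of the KO libraries, and the log2 difference of 0.16 (95% interval −0.02 to 0.34, adjusted p = 0.261) did not pass. The upstream region with 3 ARE matches had 74.7, 97.0, 85.7 and 93.7 scaled tags in KO and 86.1, 94.7, 83.3 and 73.3 in WT. The one with 2 matches had 63.7, 66.7, 58.6 and 72.3 in KO and 83.2, 66.3, 76.0 and 42.8 in WT. The genotypes overlapped at both, with log2 differences of 0.06 (95% interval −0.19 to 0.30) and 0.00 (95% interval −0.30 to 0.31). A stronger upstream region with 1 match (chr8:75086018-75086513, −7.37 kb) had 237 ± 13.3 scaled tags in KO and 214 ± 14.9 in WT (log2 difference 0.15, adjusted p = 0.263). None of the 6 tested Hmox1 regions passed. The one 15.9 kb from the Hmox1 start lay 67 bases from a start of Mcm5.

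Nfe2l2 itself showed small differences. Its promoter (chr2:75703393-75705001) had 381, 373, 390 and 368 scaled tags in KO and 348, 323, 362 and 355 in WT. All KO libraries lay above all WT libraries, yet by only 1.09 times, and the log2 difference of 0.12 (95% interval −0.03 to 0.27) had an adjusted p of 0.295. The strongest intronic region, 19.0 kb from the start (chr2:75685396-75685991), had 308 ± 15.3 in KO and 301 ± 16.8 in WT. The other 6 tested regions had log2 differences of −0.17 to 0.33, and none passed.

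The iron genes are represented by Fth1, which encodes the heavy chain of the iron store ferritin, and Slc40a1, which encodes the iron exporter ferroportin. The Fth1 promoter (chr19:9982344-9983267) had 364, 336, 400 and 369 scaled tags in KO and 323, 286, 305 and 339 in WT. WT replicate 4 lay just above KO replicate 1_3, and the other libraries were separate. The ratio was 1.17 and the log2 difference 0.23 (SE 0.08, adjusted p = 0.0440, limma), the one of the 10 promoters that passed. This call was lost in 14 of 18 alternatives, with an adjusted p of 0.184 when the KO pairs were counted once and of 0.0547 and 0.0944 with total tags and quantile scaling.

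Upstream of Fth1, the region at chr19:9965972-9966453 held an ARE match and had 34.8, 43.4, 31.6 and 41.5 scaled tags in KO and 17.4, 29.8, 24.7 and 41.7 in WT. Its log2 difference was 0.47 (SE 0.20, adjusted p = 0.118). The WT libraries spread widely there, and the log2 difference was 0.67 (adjusted p = 0.0184, limma) without WT replicate 4 but 0.25 (adjusted p = 0.479) without WT replicate 1_2. The Slc40a1 promoter (chr1:45925451-45926196) had 131, 127, 145 and 123 scaled tags in KO and 133, 113, 124 and 118 in WT, which overlapped (log2 difference 0.11, 95% interval −0.09 to 0.31). The other Slc40a1 region had a peak in WT replicates 1_2 and 1_3 alone, with 12 and 10 tags.

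**Figure D4:**
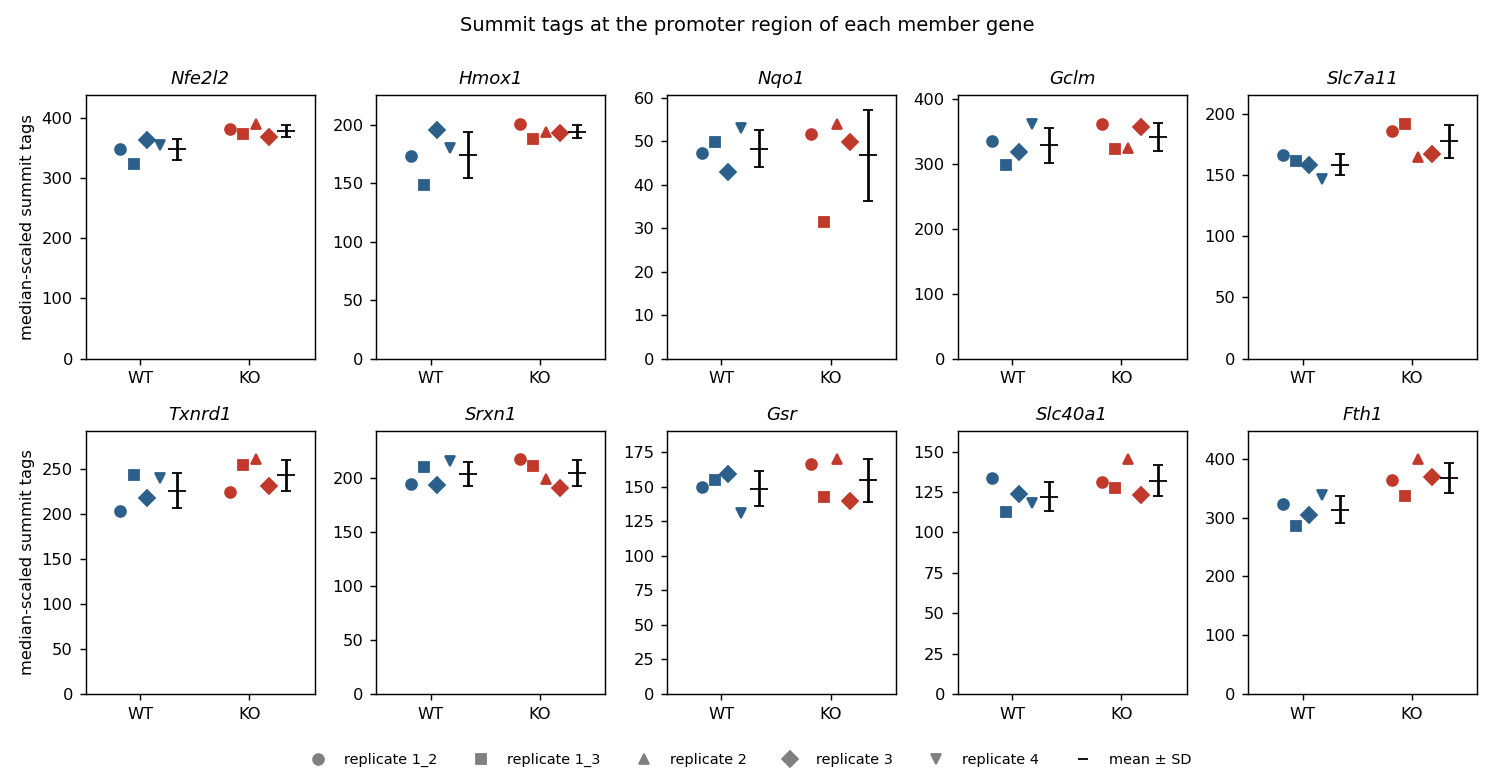
Median-scaled summit tags (y axis, from 0) of each library at the promoter region of each of the 10 genes, with the mean ± SD of each genotype in black. Levels run from about 50 at Nqo1 to over 300 at Nfe2l2, Gclm and Fth1, and the genotypes overlap in 9 of the 10 promoters, Nfe2l2 being the exception.

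Sequence matches were counted across the regions. The genes were chosen as NRF2 targets, which are known for AREs, so the share of regions with an ARE match is a description and not independent of that choice. An ARE match lay within 100 bp of the summit in 12 of the 72 regions (16.7%) and in 10.8% of all merged regions. Among regions found in all libraries the shares were 11 of 47 (23.4%) and 11.6%. The AP-1 site was found in 5 of these 47 (10.6%), and in 9.90% of all such regions. A DR1, the direct repeat that RXR binds with partners such as PPARγ, was matched in 2 of 47 (4.26%), and in 4.09% of all such regions. Of the 11 regions with an ARE match, 2 were called (Slc7a11 and Gsr, both higher in KO), where 13.6% of all 5493 tested regions with a match were called. All 11 had log2 differences above 0 (median 0.11, lowest 0.00), and so did 25 of the 36 without a match (median 0.04). Of the 11, the Nfe2l2 region 45.6 kb from its start lay 203 bases from a start of Hnrnpa3. Over all tested regions the medians were 0.06 with a match and 0.04 without, and 60.7% and 57.2% of the differences were above 0. Scaling to total tags takes the median over all regions from 0.04 to 0.01, and the lowest of the 11 would then lie below 0.

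A wider list of 41 NRF2, redox and iron genes was read at promoters alone. Of these, 39 had a promoter region in all 8 libraries, Cbr1 had one in 2 KO libraries and Cp had none. Of the 39, 7 were higher in KO and 0 lower at an adjusted p of 0.05 (limma), and 0 of the 39 lower compares with 2.76% of all 13454 tested promoters, 7 higher with 6.84%, and 7 in either direction with 9.6%. The median log2 difference was 0.12 over the list and 0.09 over all tested promoters. With the KO pairs averaged, 0 of the 39 passed (limma, 10 at an unadjusted p under 0.05), the 7 having adjusted p of 0.0671 to 0.165, and 3.09% of all promoters passed. With genome background scaling 0 of 39 passed as well (limma, 1 at an unadjusted p under 0.05), and with fold enrichment 1 did (Fech, the heme synthesis enzyme ferrochelatase, which is not among the 7).

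The 7 fell into 3 groups. In glutathione metabolism, Gss (glutathione synthetase) and Gstm1 (a glutathione transferase) were higher, 2 of 6 genes. At Gss the scaled tags were 77.7, 83.9, 71.0 and 88.9 in KO and 52.2, 64.8, 57.7 and 57.5 in WT, without overlap (log2 difference 0.47, SE 0.13, adjusted p = 0.0124, limma). Among the 7 genes of thioredoxin and peroxide metabolism, Cat (catalase, log2 difference 0.27) and Sod1 (cytosolic superoxide dismutase, 0.32) were higher. Among the 12 heme and iron genes, Ftl1 (the ferritin light chain, 0.27), Blvrb (biliverdin reductase B, 0.25) and Ncoa4 (the receptor for autophagy of ferritin, 0.33) were higher. At Ncoa4 the scaled tags were 187, 165, 178 and 194 in KO and 129, 145, 144 and 160 in WT, and the groups did not overlap. They were also separate at Cat and Blvrb, but overlapped at Gstm1, Sod1 and Ftl1. The 7 were selected on these same tags, so separation among them is not an independent result. Groups were also separate, KO above WT, at Cul3, Taldo1, Slc39a14 and Fech, which were not called. Over all tested regions, without such selection and not at promoters alone, 8.18% had all KO libraries above all WT libraries. That share is therefore not a like comparison for the 7.

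None of the 7 NRF2 regulators on the list passed, among them Keap1 (log2 difference 0.11, adjusted p = 0.604, limma) and Bach1 (0.23, adjusted p = 0.0805). They ranged from −0.18 at Maff (adjusted p = 0.197) to 0.29 at Cul3 (adjusted p = 0.0610). The adjusted p of Cul3 was 0.0432 with the replicate block and 0.201 with the KO pairs averaged (limma). The 5 NADPH-supplying genes ranged from −0.33 at Me1 to 0.21 at Pgd, and none passed. Of these, G6pdx is X-linked (log2 difference 0.16, adjusted p = 0.487), and the libraries differ at other X-linked genes as described above.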

How the data were processed

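ATAC-seq had been performed on AMs from 4 KO and 4 WT samples, described in the series as individual biological replicates that were sequenced in duplicate. What 1_2 and 1_3 stand for is not stated, so p-values measure the spread between samples, which may be partly technical. The authors used Cutadapt for trimming and Bowtie2 for alignment to mm10, discarded duplicate reads, and called peaks per library with MACS3 (no model, tags extended to 200 bp, q below 0.05). Each deposited list gave a score (a display value), the fold enrichment over local background, and −log10 p and −log10 q. The lists were used without read counts, so the authors' count test was not used here. The series states only an average number of reads per sample, and totals of single libraries were not used here. Intervals cover the spread between libraries only.

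Summit tags and local background were worked back from the deposited fold enrichment and −log10 p, and 100% of peaks gave a whole number of tags (relative tolerance 1e-05). Tags were centred on each library's median, and log2(tags + 0.5) was compared with limma 3.58.1 (R 4.3.3, trended variance) over the 47499 regions called in every library, which leaves out regions lost in one genotype. P-values were adjusted by Benjamini-Hochberg, and signs are KO minus WT. Regions were merged with pandas 2.3.3, and sequences were read with pysam 0.24.0. Tags were also simulated for the same 47499 regions (dispersion 0.02, independent libraries), with 100 regions changed 2-fold and 100 changed 4-fold. Of these, 80% of 2-fold and 99% of 4-fold changes were recovered, and 5.79% of the calls were false. Far fewer regions were changed than were called in the data. Changes below 2-fold, such as those called at these genes, were not simulated, so their recovery is not known. The members, lists, tests and the median centring were chosen with earlier results of these data known.

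Named were the promoter and the strongest other region of each gene, regions that passed, regions that differed by at least 3 libraries, and the strongest region with an ARE match of each gene. Strongest other regions without values above had log2 differences of −0.08 at Txnrd1 (39.9 kb), −0.13 at Srxn1 (10.0 kb) and 0.03 at Fth1 (−5.4 kb). Those at Gclm (45.2 kb), Gsr (20.6 kb) and Hmox1 (15.9 kb) had 0.02, 0.04 and 0.12. None of these passed. The Hmox1 regions at −9.62 and −3.93 kb, the regions with separate groups, those with few libraries, and the pathway genes shown with values were chosen after their values were seen. A DR1 allowed 2 mismatches to its half-sites. Alternatives were total tags, quantile and genome background scaling, a pseudocount of 5, peaks with −log10 q of at least 5, missing peaks set to the smallest called tags, fold enrichment, a replicate block, replicates 1_2 and 1_3 averaged, windows of 5 and 50 kb, and each library left out. Averaging the KO pairs that differed by no more than sampling noise was chosen after seeing the data, as were the alternatives for the pathway promoters. Same-numbered KO and WT samples deviated together only weakly (r = 0.0368 to 0.116 over 3 pairs, across regions), so the numbers were not taken to pair samples.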

Additional observations from a re-analysis of the deposited data

Results flagged for a closer look

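In 3 of the 74 sets of 4 libraries examined, 1 library stood far from the other 3 (Dixon's test), where chance gives about 1 in 20. At the Slc7a11 region 36.7 kb from the start, WT replicate 4 had 186 scaled summit tags and the other WT libraries 238 to 246. At the Gsr region 7.50 kb from the start, KO replicate 2 had 96.94 scaled summit tags and the other KO libraries 71.7 to 75.9. The peaks of WT replicate 1_3 covered 34.74 kb at these genes, compared with 28.1 to 28.7 kb in the other WT libraries. This library also had the longest list, with 72484 peaks, and the highest genome background, at 2.26 tags.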

How the results depend on the processing

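No call at these genes changed direction under any alternative, but the number of calls did change. The Slc7a11 region 5.29 kb from the start was called in 17 of 18 alternatives, that at 4.56 kb in 16, Gsr in 12, Slc7a11 at 36.7 kb in 10, Txnrd1 in 5 and the Fth1 promoter in 4. Scaling by genome background left 1 region called (1 higher, 0 lower). Setting missing peaks to the smallest called tags left 2 of 61 (2 higher, 0 lower), where 6.85% of all regions were called, and averaging the KO pairs at sampling noise also left 2 (2 higher, 0 lower of 47). Fold enrichment left 0 (0 higher, 0 lower, limma), with 5 at an unadjusted p under 0.05. Total tags scaling gave 2 lower regions, quantile scaling 3 higher, the 5 kb window 0 lower and the 50 kb window 8 higher. Leaving out 1 library gave 3 to 6 calls, 3 to 5 higher and 0 to 1 lower, with the fewest without KO replicate 2, KO replicate 3 or WT replicate 3. The replicate block, for samples that share only a number, gave 5 higher and 0 lower regions, and each of the 3 KO samples correlated best with the WT sample of its own number, a hint from the data and not from the design. Over all regions the block gave 3600 higher and 3283 lower. Of all calls, 45.3% were higher in KO, compared with 35.1% with total tags and 22.4% with genome background scaling. All called regions numbered 6096, 2563 with genome background scaling, 1679 with fold enrichment and 3011 with the KO pairs averaged. Presence in one genotype alone, found at 0 regions, was found at 1 where 1 library may depart and at 1 in the 50 kb window, and at 0 to 1 when a library was left out (1 without WT replicate 3). Of the 19 named regions that were not called, 1 gained a call, Fth1 at −14.3 kb, under the block and without WT replicate 4, and the sign turned in at least 1 alternative for 11. The cause of these changes was not tested. The smallest called summits had 6 to 9 tags, so weaker regions are not seen in these lists. Of the 39 pathway promoters, 7 higher became 6 with total tags, 3 with quantile scaling, 0 with genome background scaling, 1 with fold enrichment (Fech), 11 with the replicate block, 3 with replicates 1_2 and 1_3 averaged and 0 with the KO pairs averaged, and 0 were lower in each.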
